A study of Mus musculus with 19 samples.

Results

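Splicing factors were followed in the deposited RNA-seq of dorsal root ganglion (DRG) neurons that were transduced with adeno-associated virus (AAV), collected by their GFP fluorescence, and taken with or without a crush of the dorsal root. The genes comprised the SR proteins (Srsf genes), the heterogeneous nuclear ribonucleoproteins (Hnrnp genes), the SF3A and SF3B subunits, the Sm and other snRNP proteins (Snrp genes), the U2AF subunits and the splicing regulators of the Rbfox, Mbnl, Elavl, Celf, Ptbp and Nova families. They were picked from the table by symbol, and 62 of the 12629 genes in the expression table belonged to them: 11 SR proteins, 18 hnRNPs, 8 SF3A and SF3B subunits, 11 Sm and snRNP proteins, 2 U2AF subunits and 12 of 14 listed regulators. Nova1 and Nova2 had no row in the table and were not analysed here.

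The study asked which genes accompany sensory axon regeneration into the spinal cord. Its 19 libraries fell into 4 groups, GFP-naive (n = 5), α9k1-naive (n = 6), GFP-crush (n = 4) and α9k1-crush (n = 4). GFP groups received AAV5-CMV-fGFP, a membrane-targeted fluorescent protein, whereas α9k1 groups received AAV5-CAG-α9-V5 and AAV5-CMV-kindlin1-GFP, which encode the tenascin receptor subunit α9 integrin and its activator kindlin-1. The naive groups had uncut roots and the crush groups had cervical dorsal roots crushed at the time of injection, and all groups were adult males taken 8 weeks later. The CMV and CAG promoters are not restricted to neurons, and in α9k1 groups the sorted label marks the kindlin-1 virus, not the integrin virus. The sample labels give C57BL/6 mice whereas the methods of the study describe Lewis rats, and the reads were aligned to the mouse genome, so gene positions and sequences below are those of the mouse annotation. The study calls its libraries biological replicates, but the labels do not tie them to animals, and p-values therefore measure the spread between these libraries.

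Splicing removes introns from the primary transcript in the spliceosome, which is built anew on each intron from small nuclear RNAs and proteins. The U1 snRNP marks the start of the intron, U2AF binds its 3′ end, and the U2 snRNP, held by SF3A and SF3B, pairs with the branch point, while a ring of Sm proteins forms the core of each of these particles. SR proteins bind exons and mostly favour their inclusion, hnRNPs often oppose it, and the Rbfox, Mbnl, Elavl, Celf and Ptbp families set exon choice in neurons and muscle. Many of these factors limit their own amount by splicing in a "poison" exon, whose early stop codon sends the transcript to nonsense-mediated decay.

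Poison exons were looked for in the annotation of the members, since they are the sequence feature this family is best known for. In the mouse annotation (GENCODE M21, GRCm38), 29 of 62 members (46.8%) had an annotated decay transcript, against 29.7% of the 10740 protein-coding genes measured. A cassette exon that held the early stop was found in 11 members (17.7%), against 7.73% of all, and 5 of these 11 were SR proteins. The start of that exon, read in frame from the coding exon before it, is printed for 7 of them up to the stop codon, which stands in capitals.
Srsf3, chr17:29039454-29039487 (+ strand): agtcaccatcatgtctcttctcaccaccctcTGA
Srsf4, chr4:131884276-131884390 (+ strand): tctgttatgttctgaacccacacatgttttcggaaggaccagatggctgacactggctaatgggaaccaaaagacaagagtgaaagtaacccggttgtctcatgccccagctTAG
Srsf7, chr17:80205054-80205081 (- strand): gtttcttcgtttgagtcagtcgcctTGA
Srsf11, chr3:158024209-158024231 (- strand): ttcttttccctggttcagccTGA
Hnrnpl, chr7:28817335-28817393 (+ strand): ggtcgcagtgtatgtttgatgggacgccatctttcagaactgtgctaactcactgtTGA
Sf3b1, chr1:55014905-55014924 (- strand): gcttctattctgctgctTGA
Snrpb, chr2:130176695-130176752 (- strand): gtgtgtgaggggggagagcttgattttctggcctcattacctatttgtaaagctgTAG
The deposited values are sums per gene, so inclusion of these exons was not measured.

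The promoters were searched next because groups of members moved together in the comparisons below. RefSeq windows (GRCm38.p6) of 250 bases before to 50 bases after a start were found for 55 of 62 members, 83 windows in all, some of them overlapping starts of 1 gene. The ETS core CCGGAAG, on either strand, was in 24.1% of these windows against 8.86% of all 32851 windows, and the GC box GGGCGG was in 66.3% against 35.7%. By role, the ETS core was in 6 of 7 SF3A and SF3B windows, 6 of 14 SR protein windows, 4 of 13 Sm and snRNP windows, 4 of 26 hnRNP windows (3 of them of Hnrnpf), 0 of 3 U2AF windows and 0 of 20 windows of the regulators. These count windows, not genes, and Srsf4, Srsf11, Elavl2 and Elavl4 also had more than 1 window each. Among the other motifs, CCAAT was in 48.2% against 37.4%, the NRF1 core GCATGCG in 12% against 3.58%, the CRE core TGACGTC in 7.23% against 3.21%, the E-box CACGTG in 10.8% against 7.15%, TATAAA in 9.64% against 13.6% and the YY1 core AAGATGG in 3.61% against 6.34%. 4 windows are shown, 2 of SF3 genes that were lower in α9k1-naive and 2 of SR genes that were lower in GFP-crush, with ETS cores and GC boxes of either strand in capitals, run together where matches overlap or adjoin.
Sf3a2, chr10:80798485-80798784 (+ strand): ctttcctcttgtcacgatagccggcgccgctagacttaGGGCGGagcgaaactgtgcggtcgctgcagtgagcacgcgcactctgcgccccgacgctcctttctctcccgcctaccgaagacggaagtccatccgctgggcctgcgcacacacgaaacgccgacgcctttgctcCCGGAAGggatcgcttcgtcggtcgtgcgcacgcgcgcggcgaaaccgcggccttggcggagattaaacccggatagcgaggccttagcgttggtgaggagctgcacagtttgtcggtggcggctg
Sf3b6, chr12:4817358-4817657 (+ strand): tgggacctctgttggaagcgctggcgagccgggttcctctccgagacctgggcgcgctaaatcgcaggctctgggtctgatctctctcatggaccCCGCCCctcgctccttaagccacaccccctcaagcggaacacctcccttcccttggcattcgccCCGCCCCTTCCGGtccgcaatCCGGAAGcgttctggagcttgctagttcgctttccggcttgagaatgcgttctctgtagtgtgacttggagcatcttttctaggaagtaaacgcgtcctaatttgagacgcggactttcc
Srsf5, chr12:80945249-80945548 (+ strand): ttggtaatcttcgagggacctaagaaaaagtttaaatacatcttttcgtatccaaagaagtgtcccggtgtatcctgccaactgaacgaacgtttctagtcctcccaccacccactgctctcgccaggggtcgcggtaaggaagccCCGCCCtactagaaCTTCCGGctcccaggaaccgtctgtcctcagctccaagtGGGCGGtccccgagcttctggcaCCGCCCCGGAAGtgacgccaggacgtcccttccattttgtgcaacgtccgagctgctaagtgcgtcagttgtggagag
Srsf11, chr3:158036557-158036856 (- strand): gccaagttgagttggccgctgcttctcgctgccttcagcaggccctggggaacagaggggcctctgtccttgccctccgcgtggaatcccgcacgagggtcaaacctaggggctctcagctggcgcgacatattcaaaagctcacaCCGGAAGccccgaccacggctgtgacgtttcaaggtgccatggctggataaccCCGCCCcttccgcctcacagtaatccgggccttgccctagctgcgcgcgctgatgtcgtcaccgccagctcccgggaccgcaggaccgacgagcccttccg
A match is a description of letters, and binding was not measured.

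The libraries held 36.4 to 87.6 M read pairs, of which 47.5 to 54.1% aligned to the mouse genome with 3.87 to 4.05% mismatched bases, and the part of the species question in these rates was not tested. Values correlated at 0.948 to 0.976 within groups and 0.847 to 0.949 between groups, and α9k1-naive replicate 6 had the lowest mean correlation with its own group among the naive libraries (0.954). On the deposited log2 scale, kindlin-1 (Fermt1) was at 5.18 to 6.0 in α9k1-naive and 6.42 to 7.73 in α9k1-crush, against 0.42 to 0.80 in GFP libraries. Itga9 was at 2.38 to 5.16 in α9k1-naive, where its lowest library did not clear the highest GFP-naive library (2.40). In α9k1-crush Itga9 was at 5.53 to 7.51. Both genes were thus higher in every α9k1-crush library than in every α9k1-naive library. The part of this in α9k1-crush against α9k1-naive and in the interaction was not tested. The study sorted for GFP-expressing neurons, but transcripts of other cell types were present. The 7 satellite glia markers summed to 15.60 to 15.98 (log2) in GFP-naive, above the 16 sensory neuron markers (13.74 to 14.10), and the glia sum was 16.29 to 16.80 in α9k1-naive, 14.75 to 15.03 in GFP-crush and 14.19 to 14.74 in α9k1-crush. These sums are mostly Apoe, since the other 6 glia markers summed to 11.92 to 12.18 in GFP-naive, below the neuron sum, and to 11.81 to 12.20, 11.64 to 11.90 and 11.07 to 11.39 in the other groups. Schwann cell markers summed to 13.03 to 13.38 in GFP-naive and 11.49 to 11.89 in α9k1-naive, and macrophage markers to 7.43 to 7.98 and 8.70 to 9.18. The part of cell composition in the results below was not tested, and fewer cells of a type and less RNA per cell cannot be told apart in bulk samples.

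Levels are given on the deposited scale, log2 values that the authors adjusted for gene length and depth. Snrpn, the tissue-specific SmN protein of the brain, was the highest member (mean 9.48, above 98.9% of the genes), followed by Hnrnpk (9.06), Srsf5 (7.82) and the neuronal Elavl4 (7.80). At the low end were Elavl3 (2.71), Srsf12 (3.21) and Snrpc of the U1 snRNP (3.29). The second U2AF gene, U2af1l4, held the same value (6.71, equal at 4 decimals) in 11 of 19 libraries, a repeat that also fills other cells of the table. Of its exon bases, 65.6% are shared with Gm49396, so its call in α9k1-naive, which the counts below include, is doubtful. A near-identical stretch in another gene was found for 31 members, most often for Hnrnpa3 and Hnrnpa1, and their values are less certain for that reason. Among members named below, Hnrnpf matched 8 other genes, 6 of them pseudogenes, and U2af1 matched 3 pseudogenes.

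With α9 integrin and kindlin-1 in uninjured animals, several genes of branch-point recognition were lower. Against GFP-naive, 17 members fell and 3 rose in α9k1-naive, or 27.4% and 4.84% of the 62, beside 17.6% and 11.4% of all genes, and leaving aside U2af1l4 16 of 61 fell (limma, adjusted p under 0.1, with 3 principal components of library metrics as covariates). The median over members was -0.13 (log2) and that over all genes -0.08. 5 of 8 SF3A and SF3B subunits fell, as did 3 of 11 Sm and snRNP proteins and U2af1, while SR proteins (1 rose, 2 fell of 11) and hnRNPs (1 rose, 2 fell of 18) were mostly not called.

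Sf3a2, a subunit of SF3A (ENSMUSG00000020211, chr10:80798198-80804924, GRCm38), had the largest fall among them. Its values were 5.21, 5.88, 5.76, 5.63 and 5.68 in the GFP-naive libraries, against a lowest of 4.77, a median of 4.93 and a highest of 5.15 in α9k1-naive. Every α9k1-naive library was below every GFP-naive library, and the fitted difference was -0.77 ± 0.14 (SE; limma adjusted p = 0.000895). Sf3a2 shares 16.1% of its exon bases with Plekhj1 on the opposite strand, and the library kit keeps no strand. Sf3b6, the branch-point contacting p14 protein (ENSMUSG00000037361, chr12:4817608-4827658), was at 6.67, 6.65, 7.27, 6.93 and 6.92 in GFP-naive and at 5.90 to 6.31, with a median of 6.21, in α9k1-naive. The groups did not overlap here either, and the difference was -0.55 ± 0.12 (limma adjusted p = 0.00422). Sf3b1, the SF3B scaffold (-0.52), Sf3b4 (-0.41) and Sf3b5 (-0.37) fell as well, and the remaining subunits ranged up to -0.12 for Sf3a3, all with a negative sign.

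U2af1, the small U2AF subunit that reads the AG at the intron end (ENSMUSG00000061613, chr17:31647082-31658754), moved with them. It was at 6.03, 5.86, 6.15, 6.21 and 6.33 in GFP-naive and between 4.73 and 5.59, with a median of 5.15, in α9k1-naive. All 6 libraries with integrin were below all controls, and U2af1 fell by 0.62 ± 0.14 (limma adjusted p = 0.00664). Among snRNP proteins, Snrpb2, which joins the U2 snRNP, fell by 0.52 ± 0.13 (adjusted p = 0.0119 in limma), and the Sm ring proteins Snrpd3 and Snrpe had differences of -0.46 and -0.39. The other members of that list lay between -0.13 and 0.05, the latter for Snrpa of the U1 snRNP.

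Hnrnpf, a G-tract binding hnRNP (ENSMUSG00000042079, chr6:117900324-117925622), was the clearest riser. Its values of 6.98, 7.15, 7.0, 7.21 and 7.03 in GFP-naive contrasted with 7.80 to 8.04 and a median of 7.97 in α9k1-naive. No libraries overlapped, and the difference of 0.85 ± 0.10 (limma adjusted p = 3.22e-05) amounted to 80.2% more. The related Hnrnph1 fell (-0.40), as did Hnrnpul1 (-0.67 ± 0.17, adjusted p = 0.0122 in limma), an RNA-binding protein of the hnRNP U family. Srsf12, a low-level SR protein that can oppose the others, rose (0.80), whereas Srsf7 (-0.41) and Srsf1 (-0.34), the founding SR protein, fell.

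Among the regulators, Celf4, a neuronal CUG-binding protein, rose by 0.91 ± 0.27 (limma adjusted p = 0.0275), although its values of 4.79 to 5.88 in α9k1-naive overlapped those in GFP-naive (4.37 to 5.18). Mbnl1, which switches exons to their adult form, fell by 0.87 in the fit, but its libraries overlapped (3.94 to 5.10 against 4.59 to 5.27) and the plain difference of group means was -0.34 and was not called. Mbnl2 (-0.39) and the neuronal repressor Ptbp2 (-0.40) were also called lower, the latter with a difference of 0.03 when the covariates were left out. The other regulators were not called, with Elavl2 at -0.42, Rbfox2 at -0.15, Elavl4 at -0.13, Ptbp1 at -0.09, Rbfox1 at -0.08, Celf1 at -0.01, Elavl3 at 0.00 and Elavl1 at 0.06.

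Which libraries entered the fit mattered for part of this list. Without α9k1-naive replicate 6, 3 members were called higher and 9 lower (14.5% of 62, beside 12.5% of all genes lower in that fit), 12 in all instead of 20, with 3 SF3 subunits in place of 5 and 0 SR proteins in place of 3. Without the covariates 35 members were called (6 higher and 29 lower, beside 16.5% and 29.5% of all genes), 6 of 11 SR proteins and 10 of 18 hnRNPs among them. Removing the covariates enlarged the differences of Sf3b5 (-0.77), Snrpb2 (-0.80), Snrpd3 (-0.83) and U2af1 (-0.95) and reduced that of Celf4 (0.58). Celf4, Hnrnpf, Hnrnpul1, Sf3a2, Sf3b6, Snrpd3 and U2af1, 7 of the 20, were called under all 28 alternatives tried. Neurofilament markers fell in the same comparison, with Nefm at -2.42, Nefh at -2.32 and Nefl at -2.10, as 6 of 16 sensory neuron markers did and 1 rose. In addition 6 of 7 Schwann cell markers, 5 of 5 fibroblast markers and 3 of 3 endothelial markers fell, 6 of 9 macrophage markers rose and of 7 satellite glia markers 3 rose and 1 fell (Sox10 -1.45), and the part of these shifts in the values of the splicing factors was not tested.

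**Figure D1:**
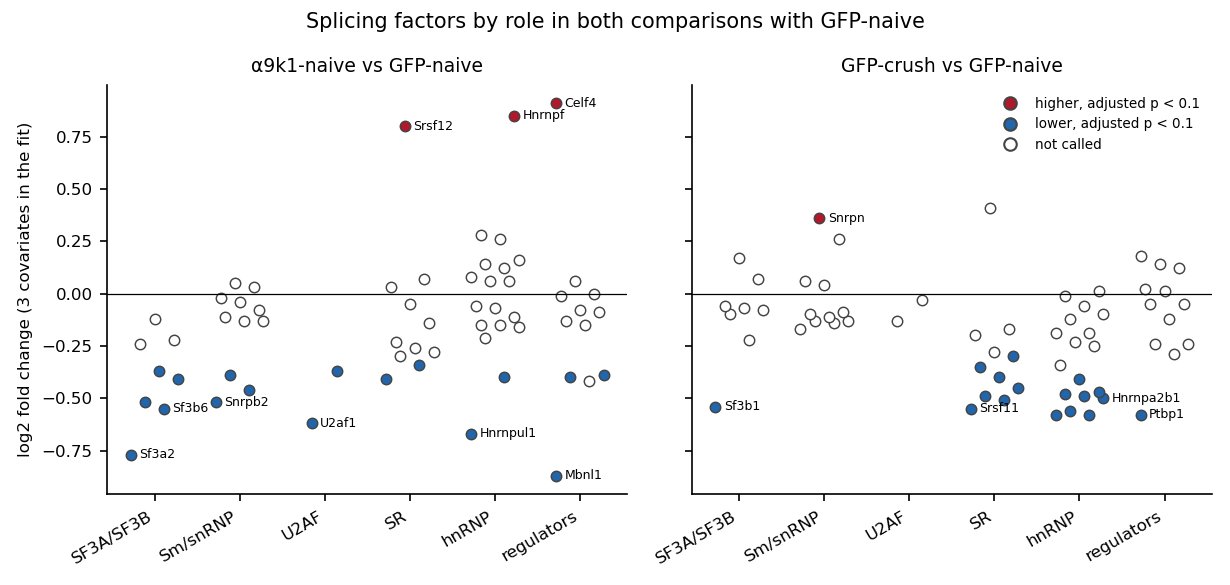
Fitted log2 fold change of each of the 62 splicing factors against GFP-naive, by role, for α9k1-naive (left) and GFP-crush (right); each point is 1 gene, filled where limma's adjusted p was under 0.1. On the left, 5 of 8 SF3A and SF3B subunits lie among the lower calls, and on the right 7 of 11 SR proteins and 8 of 18 hnRNPs do.

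With root crush alone, most SR proteins and part of the hnRNPs were lower. In GFP-crush against GFP-naive, 17 members fell and 1 rose (27.4% and 1.61%), beside 15.7% and 7.39% of all genes. The member median was -0.14 and that of all genes -0.08. 7 of 11 SR proteins and 8 of 18 hnRNPs fell and none rose, whereas 1 of 8 SF3 subunits, Sf3b1, and 0 of 2 U2AF genes were called. This comparison shares the GFP-naive libraries with the preceding one.

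Srsf5, the highest SR protein transcript (ENSMUSG00000021134, chr12:80945504-80950507), had values of 8.07, 8.10, 8.21, 8.24 and 8.02 in GFP-naive and of 7.56, 7.56, 7.83 and 7.82 in GFP-crush. All crushed libraries were lower, by 0.49 ± 0.13 in the fit (limma adjusted p = 0.0208). Srsf11, an SR-related protein of the 3′ splice site (ENSMUSG00000055436, chr3:158010473-158036639), was at 6.41, 6.56, 6.33, 6.68 and 6.28 before and 5.97, 5.72, 6.07 and 5.95 after crush. The groups were again apart, and Srsf11 fell by 0.55 ± 0.12 (limma adjusted p = 0.00969). Srsf3, whose poison exon is printed above (ENSMUSG00000071172, chr17:29032673-29043366), fell by 0.51 ± 0.12 (adjusted p = 0.0128 in limma). Srsf4 (-0.45), Srsf2 (-0.40), Srsf6 (-0.35) and Srsf1 (-0.30) fell by smaller amounts, and Srsf12 was the only SR protein with a positive value (0.41, not called).

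Hnrnpa2b1, which binds and sorts RNAs for transport along axons and dendrites (ENSMUSG00000004980, chr6:51460932-51469894), stood at 7.84, 7.93, 7.82, 8.03 and 7.80 in GFP-naive and at 7.46, 7.38, 7.53 and 7.43 in GFP-crush. These did not overlap, and the difference was -0.50 ± 0.11 (limma adjusted p = 0.00811). Hnrnph1 (-0.58), Hnrnpul1 (-0.58), Hnrnpa3 (-0.56), Hnrnpdl (-0.49), Hnrnpu (-0.48), Hnrnpl (-0.47) and Hnrnpd (-0.41) fell too, the last being the AU-rich element binding protein AUF1. 17 of the 18 hnRNPs had a negative sign, and the highest was Hnrnpab at 0.01. Ptbp1, the widespread relative of Ptbp2, fell by 0.58 ± 0.21 (limma adjusted p = 0.0794), and the remaining regulators were not called, from -0.29 for Rbfox2 to 0.18 for Elavl3.

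Snrpn was the 1 member that rose after crush. Its values were 9.41, 9.38, 9.32, 9.20 and 9.41 in GFP-naive and 9.81, 9.83, 9.50 and 9.66 in GFP-crush. The gain of 0.36 ± 0.10 (limma adjusted p = 0.0262) left no overlap between the groups. The other Sm and snRNP proteins were not called, down to -0.17 for Snrpd1.

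These calls were less settled than those in α9k1-naive. Removing GFP-naive replicate 2 left 9 calls (8 lower, beside 8.37% of all genes, and 1 higher) with 4 SR proteins and 3 hnRNPs. Removing GFP-crush replicate 1 or 2 left 12 calls (11 lower and 1 higher) with 4 SR proteins and 6 hnRNPs. In those fits 1418 and 1382 of 12629 genes were lower. A fit on the 9 libraries of these groups alone left 1, Ptbp1, and no SR protein or hnRNP (5.24% of all genes were lower in it). Removing a trend of each library on exon length and GC content gave 10 calls (9 lower, beside 9.7% of all genes, and 1 higher). They were 9 of the 18 and the newly called Srsf9, and 6 were SR proteins and 3 hnRNPs. Centring each library on its median turned the median of all genes from -0.08 to 0.06 and left 10 members lower, 3 SR proteins and 6 hnRNPs among them. In it 2 were higher, Snrpn and the newly called Sf3b5, beside 9.34% of all genes lower and 14.5% higher. None of the 18 was called under all 28 alternatives, but Hnrnpa2b1, Hnrnph1, Srsf5 and Srsf11 were under each of the 8 that kept all libraries. Sensory neuron markers moved the other way (7 of 16 rose, 1 fell, Nefl at 1.02), 5 of 7 satellite glia markers and 4 of 5 fibroblast markers fell, 6 of 9 macrophage markers rose, and their part in the result was not tested.

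**Figure D2:**
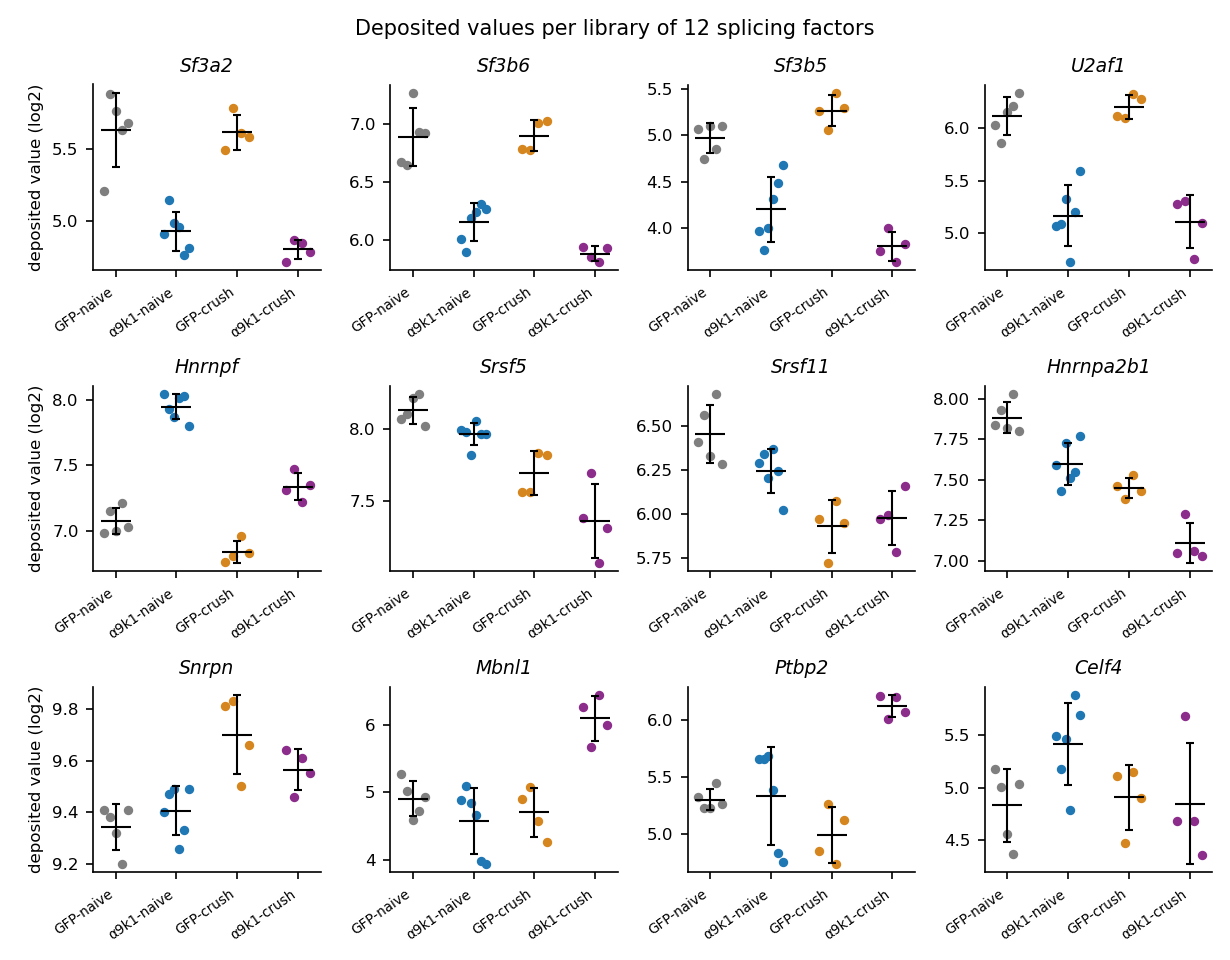
Deposited log2 values of 12 splicing factors, 1 point per library, in the 4 groups, with the mean as a long bar and the SD as a whisker. Each panel has its own axis, which does not start at 0; Sf3a2, Sf3b6, Sf3b5 and U2af1 lie lower in both α9k1 groups, and Srsf5, Srsf11 and Hnrnpa2b1 have lower means after crush with either virus.

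Integrin expression and crush were also compared by setting α9k1-naive directly against GFP-crush. This subtracts the crush effect from the integrin effect, so a member lowered by both can drop out. It cannot show whether they acted on different members. Against GFP-naive, 4 members (Hnrnph1, Hnrnpul1, Sf3b1 and Srsf1) were called lower in both comparisons, of 17 in each, and 0 were higher in both. That overlap was not counted over all genes. 7 members were lower in α9k1-naive and 5 higher (11.3% and 8.06%, beside 13.6% and 14.7% of all genes), so as a whole the members were called no more often than other genes. The lower ones were 4 SF3 subunits, Sf3a2 (-0.70), Sf3b5 (-0.54), Sf3b4 (-0.48) and Sf3b6 (-0.47), with Snrpb2 (-0.56), U2af1 (-0.49) and Mbnl1 (-0.98). The higher ones were the hnRNPs Hnrnpf (1.10), Hnrnpl (0.72), Hnrnpa3 (0.65) and Hnrnpdl (0.55) and the SR protein Srsf5 (0.44). In this fit no SF3 or snRNP gene was higher and no SR protein or hnRNP lower, while without covariates 1 of 11 SR proteins and 1 of 18 hnRNPs were lower. Without covariates Mbnl1 (-0.13) and Hnrnpa3 (0.05) were near 0 and not called, Hnrnpdl was at 0.25, and Sf3b5 (-1.07), Snrpb2 (-0.99) and U2af1 (-1.03) were further apart. For Sf3a2 the difference was ± 0.19 (SE, limma adjusted p = 0.016) with no overlap between the 6 and the 4 libraries, and for Hnrnpf it was ± 0.14 (limma adjusted p = 8.71e-05). Without GFP-crush replicate 2, 5 calls were left (Hnrnpf, Hnrnpl, Mbnl1, Sf3a2 and Sf3b5), beside 10.6% of all genes higher and 9.45% lower, and a fit on these 10 libraries alone called 3 (Celf4, Hnrnpf and Sf3a2), beside 3.63% and 1.75%. Of 16 sensory neuron markers 9 were lower in α9k1-naive than in GFP-crush (Nefm -3.38) and 1 higher, 6 of 7 Schwann cell markers were lower (Ncmap -3.05) and 1 higher, 4 of 7 satellite glia markers were higher (Apoe 1.82) and 1 lower, and their part in the result was not tested.

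With both integrin and crush, the group in which the study follows regeneration, the outcome depended on the covariates. In α9k1-crush against GFP-crush, 0 of 62 members were called with covariates, where 0.728% of all genes were higher and 0.182% lower. 6 members had an unadjusted p under 0.05 in limma, and the median was -0.02. Fitted values ran from -0.83 (Sf3a2) to 0.18 (Sf3a3) in the SF3 genes, from -0.52 (Snrpd3) to 0.63 (Snrpa) in the snRNP genes, from -0.27 (Srsf4) to 0.41 (Srsf3) in the SR genes, from -0.24 (Hnrnpa1) to 0.60 (Hnrnpf) in the hnRNPs and from -0.46 (Rbfox2) to 0.33 (Celf1) in the regulators. Leaving out the covariates, limma called 11 members higher and 28 lower (17.7% and 45.2%), beside 29.6% and 28.3% of all genes. The third library component differed mostly between groups (74.5% of its variance), so library quality and group cannot be fully told apart here. The metrics behind the components include the intronic share, which is given below as a readout of its own.

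Plain values of 7 of 8 SF3 genes and 8 of 11 Sm and snRNP genes were lower in every α9k1-crush library than in every GFP-crush library, beside 20.8% of all genes, whereas Sf3b1, Snrpa and Snrpn were among those that overlapped. Sf3b5 was at 5.26, 5.06, 5.46 and 5.30 in GFP-crush and 3.75, 4.0, 3.63 and 3.82 in α9k1-crush, and the plain difference of means was -1.47, with a fitted value of -0.59 ± 0.24 (limma adjusted p = 0.472). U2af1 was at 6.11, 6.09, 6.32 and 6.27 against 5.28, 5.31, 4.76 and 5.10, with a plain difference of -1.08 and a fitted one of -0.78 ± 0.32 (limma adjusted p = 0.468). For Sf3a2, 5.49, 5.78, 5.61 and 5.58 stood against 4.72, 4.87, 4.85 and 4.79, and here the plain (-0.81) and fitted (-0.83 ± 0.30) differences were alike in size while the adjusted p in limma was 0.38. Snrpg had -1.35 plain and -0.02 fitted, and Snrpd3 had -1.25 and -0.52. In the fit without covariates, cell type markers moved too. Satellite glia markers were lower in 5 of 7, Schwann cell markers in 4 of 7 (1 higher) and endothelial markers in 2 of 3. Of 16 sensory neuron markers 6 were higher and 2 lower. Of 9 macrophage markers 2 were higher and 1 lower, and of 5 fibroblast markers 1 was higher. Their part in these differences was not tested.

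Without covariates 8 of 12 regulators, 3 of 18 hnRNPs and 0 of 11 SR proteins were higher, beside 29.6% of all genes. Lower were 1 regulator, Elavl3 (-0.66), 6 of 18 hnRNPs and 5 of 11 SR proteins, beside 28.3% of all genes. Mbnl1 was at 4.90, 5.08, 4.57 and 4.27 in GFP-crush and 6.26, 5.67, 6.44 and 6.00 in α9k1-crush, a plain difference of 1.39 that became -0.30 ± 0.45 in the fit with covariates. Elavl2 (1.17) and Ptbp2 (1.13) behaved likewise, with fitted values of -0.09 and 0.08. Hnrnpf, higher with integrin in the uninjured groups, was at 6.76, 6.81, 6.96 and 6.83 against 7.31, 7.47, 7.22 and 7.35, and its plain (0.50) and fitted (0.60 ± 0.22) differences were close, without a call in the fit (limma adjusted p = 0.402).

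**Figure D3:**
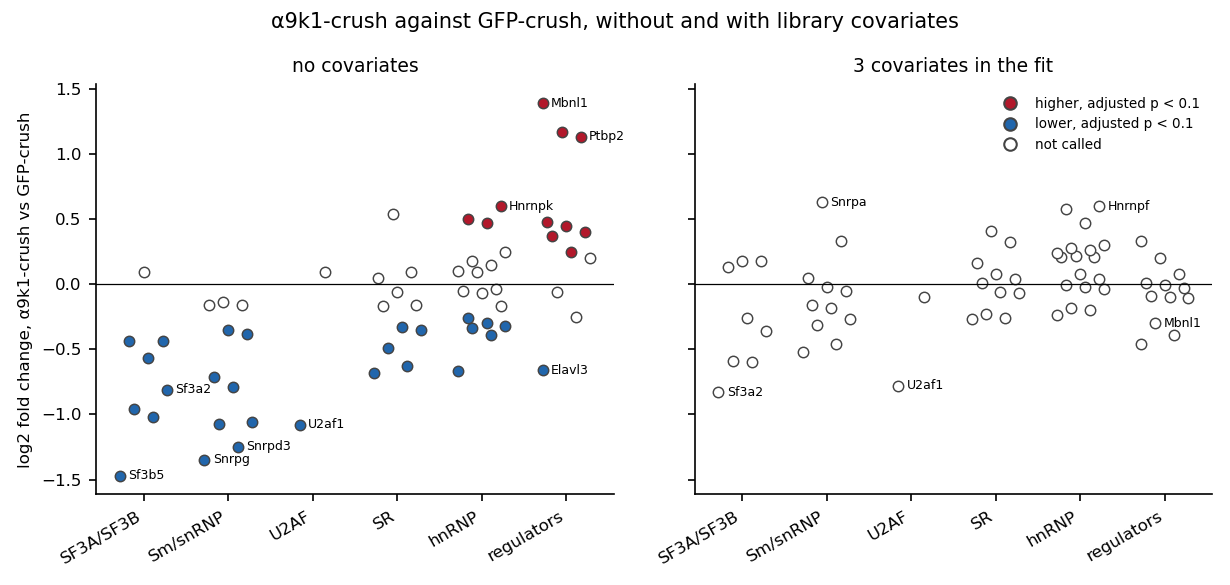
Log2 fold change of the 62 members in α9k1-crush against GFP-crush, by role, from limma without covariates (left) and with 3 library covariates (right); filled points had an adjusted p under 0.1. On the left 39 members are called, most SF3 and Sm proteins among the lower ones, and on the right 0 are.

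The plain difference, taken with its sign, tended to rise with exon length. Over the 62 members, Spearman's rho between annotated exon length and the plain α9k1-crush against GFP-crush difference was 0.54, and over 12610 genes it was 0.41. With covariates it was 0.31 and 0.19. In GFP-crush against GFP-naive the sign was the opposite, at -0.52 for members and -0.30 for all genes without covariates. These are descriptions across genes that share libraries. After a smooth trend on length and GC content was removed from each library, the fit without covariates called 7 members higher and 32 lower (beside 24.7% and 26.3% of all genes), of which 31 had been called in the same direction before.

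**Figure D4:**
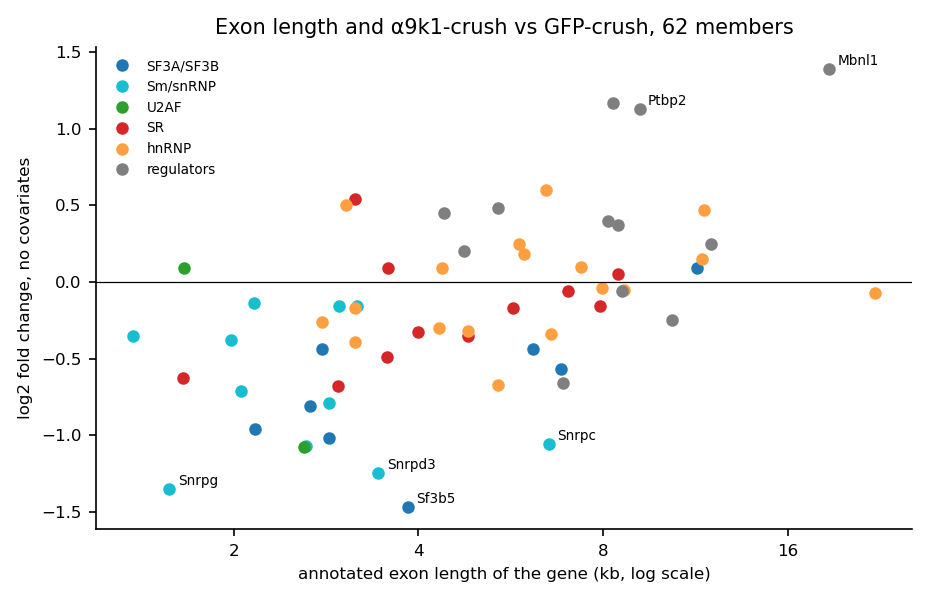
Annotated exon length of each member (kilobases, log axis) against its log2 difference between α9k1-crush and GFP-crush without covariates, coloured by role. The long Mbnl1 lies at the top (1.39) and the short Snrpg low (-1.35), but Sf3b5, of intermediate length, is also low (-1.47), and Spearman's rho is 0.54 over 62 genes.

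After crush in integrin-expressing neurons, no member was called either. α9k1-crush against α9k1-naive gave 0 of 62, beside 4.47% of all genes higher and 5.27% lower, with 6 members at an unadjusted p under 0.05 in limma and a median of -0.03. The largest fitted values were -1.28 ± 0.49 for Celf4 (limma adjusted p = 0.151) and 0.69 ± 0.37 for Mbnl1. Within the other lists the ends were Sf3a1 (-0.46) and Sf3b2 (0.33), Snrpd1 (-0.22) and Snrpb2 (0.50), Srsf9 (-0.57) and Srsf1 (0.20), and Hnrnpdl (-0.58) and Hnrnpm (0.18). Without α9k1-crush replicate 2, 5 were called lower (Celf4, Hnrnpa2b1, Hnrnpdl, Hnrnpf and Srsf9), beside 7.66% of all genes. Leaving out the covariates, 8 were higher and 31 lower (12.9% and 50%, beside 28.5% and 27.1% of all genes). Hnrnpa2b1 was at 7.05, 7.29, 7.06 and 7.03 in α9k1-crush, all below the 6 α9k1-naive libraries (7.43 to 7.77), with a fitted difference of -0.47 ± 0.19 (limma adjusted p = 0.176). With covariates, 5 of 16 sensory neuron markers (Nefh 2.79), 6 of 7 Schwann cell, 4 of 5 fibroblast, 2 of 9 macrophage and 1 of 3 endothelial markers were higher. Of 7 satellite glia markers 4 were lower (Fabp7 -2.28). In each list 0 went the other way, and their part in the result was not tested.

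The interaction asks whether the crush effect differed between integrin and control virus. 0 of 62 members were called, beside 1.35% of all genes above 0 and 0.847% below it, and 6 had an unadjusted p under 0.05 in limma, among them Sf3b1 (0.65 ± 0.26), Srsf11 (0.58 ± 0.25) and Snrpn (-0.50 ± 0.20). The ends of the lists were Sf3a1 (-0.36) and Sf3b1, Snrpn and Snrpa (0.59), Srsf12 (-0.79) and Srsf11, Hnrnpf (-0.25) and Hnrnph1 (0.61), and Celf4 (-1.30) and Mbnl1 (0.57). Without covariates limma called 17 of 62, 11 above 0 and 6 below, beside 23.3% of all genes above 0 and 16.1% below. Among the 17 were 5 hnRNPs (4 above 0 and 1 below) and 1 SR protein, Srsf9, below 0. With the covariates, a difference between the viruses in the effect of crush on SR proteins and hnRNPs was not shown.

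Outside the members, further parts of the splicing apparatus were followed as lists, to be read beside 17.6% of all genes lower and 11.4% higher with integrin and 15.7% and 7.39% with crush. Of 9 SR protein kinases and importers, 3 fell and 1 rose in α9k1-naive against GFP-naive (Prpf4b -0.95, Clk1 -0.42 and Srpk2 -0.31, with the importer Tnpo3 at 0.34), and 3 fell after crush in GFP neurons (Clk1 -0.95, Dyrk1a -0.78 and Prpf4b -0.43). Clk1, a kinase that releases SR proteins from nuclear speckles, was at 6.87 ± 0.11 (SD, n = 5) in GFP-naive. It was at 6.32 ± 0.06 (n = 6) with integrin and at 6.03 ± 0.33 (n = 4) after crush with the control virus. Of 52 genes in a list of tri-snRNP, Prp19 complex, helicase and other spliceosome proteins (the tri-snRNP list), 13 fell (25%) and 0 rose with integrin. Lowest were Luc7l3 and Snrnp35 (both -1.08) and the helicase Dhx8 (-1.0). With crush 8 fell (15.4%) and 3 rose, with Rbm39 (-0.67), Snrnp70 of the U1 snRNP (-0.63) and Dhx15 (-0.56) lowest. Highest were Plrg1 (0.43), Txnl4a (0.38) and Cwc15 (0.25). Luc7l3, Snrnp35, Rbm39 and Snrnp70 are not proteins of the tri-snRNP or Prp19 complex. Lsm and SMN assembly factors numbered 4 lower of 21 with integrin (19%; Gemin4 -0.92, Gemin5 -0.70, Lsm2 -0.65) and 2 lower and 1 higher with crush (Gemin2 -0.57, Lsm8 -0.41, Lsm4 0.27).

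Of 37 further RNA-binding splicing regulators, 21 fell (56.8%) and 0 rose with crush in GFP neurons, and 13 fell (35.1%) and 3 rose with integrin. With length and GC trends removed, 9 fell with crush (24.3%, beside 9.7% of all genes) and 8 with integrin (21.6%, beside 14.4%), and the tri-snRNP list had 4 lower with crush (7.69%). The list of SR protein kinases and importers then had 1 lower (11.1%) and 1 higher with crush. Son, a speckle scaffold, was the lowest after crush (-0.88), followed by the cold-inducible Cirbp (-0.86). With integrin, Pnn (-0.98), Rbm5 (-0.97) and Cirbp (-0.82) were lowest, and Celf6 (1.05), Khdrbs3 (0.56) and Rbm3 (0.33) rose. Exon junction and decay factors were mostly not called, with 2 of 14 lower with integrin (14.3%; Upf3b -0.50 and Casc3 -0.31) and 1 lower with crush (Smg9 -0.56). Without covariates, Gemin4, Rbm3 and Casc3 were not called with integrin, nor were Prpf4b, Lsm8, Gemin2 and Smg9 with crush. In α9k1-crush against α9k1-naive, where no member was called, Luc7l3 rose (2.08) and Lsm6 (-0.95), Lsm8 (-0.75) and Celf6 (-2.09) fell. In α9k1-naive set directly against GFP-crush, Dyrk1a (1.01), Clk1 (0.53) and Tnpo3 (0.47) were higher and Prpf4b (-0.53) lower, Ddx23 (0.57), Dhx15 (0.48) and Prpf18 (0.42) were higher, and Dhx8 (-1.13), Plrg1 (-0.71) and Txnl4a (-0.62) lower. Lsm2 (-0.52) and Gemin5 (-0.46) were lower there, Celf6 (1.58), Khdrbs3 (0.97) and Rbm3 (0.85) higher, Pnn (-0.66), Rbm10 (-0.58) and Rbm5 (-0.54) lower, and the junction factors Rnps1 (0.37) and Casc3 (-0.45) were called in opposite directions. Without covariates Casc3 (-0.02), Rbm5 (-0.15) and Gemin5 (-0.21) were not called there. Interactions were called for Son (0.97) and Lsm6 (-0.94) alone among these lists.

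The deposited library metrics include the share of aligned bases in introns, a readout that rises with unspliced RNA and also with DNA carried over into the library. It was 2.11 ± 0.116% (SD, n = 5) in GFP-naive and 1.72 ± 0.273% (n = 6) in α9k1-naive, a difference of -0.393 points (two-sided exact permutation p = 0.0152, adjusted p = 0.0571 over 4 comparisons). In α9k1-crush it was 1.53 ± 0.125% against 2.40 ± 0.369% in GFP-crush, a difference of -0.864 points (exact permutation p = 0.0286, adjusted 0.0571), where the groups did not overlap and the unadjusted p is the smallest that 4 against 4 libraries allow. GFP-crush and GFP-naive differed by 0.286 points (exact permutation p = 0.0952, adjusted 0.127), and α9k1-crush and α9k1-naive by -0.185 points (exact permutation p = 0.31, adjusted 0.31). No comparison had an adjusted p under 0.05. The intergenic share moved in the same direction, at 3.18 to 3.64% in α9k1-crush against 4.88 to 5.98% in GFP-crush, and with medians of 3.58% in α9k1-naive and 4.29% in GFP-naive. α9k1-naive replicate 6 was the highest of its group in both shares (4.76% intergenic), and the part of DNA in the intronic difference was not tested.

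**Figure D5:**
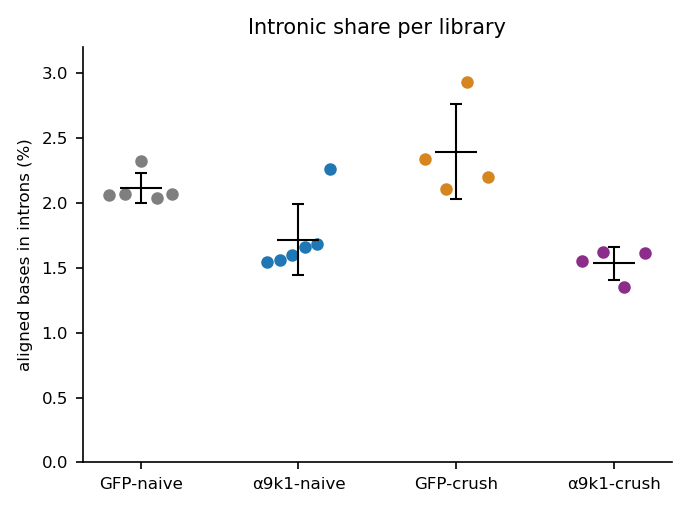
Share of aligned bases in introns (%) per library and group, with the mean as a long bar and the SD as a whisker. The 4 α9k1-crush libraries lie below all 4 GFP-crush libraries, and 1 α9k1-naive library, at 2.26%, lies among the GFP-naive libraries.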

How the data were processed

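RNA from FACS-sorted GFP-positive DRG cells of 19 libraries in 4 groups had been amplified with an unstranded full-length kit. The authors aligned reads to mm10 with STAR, removed discordant alignments with SAMtools, collected metrics with Picard and quantified genes with Salmon; versions are not given in the sources used here. They deposited log2 values of 12629 genes after filtering low genes, adding a pseudocount and conditional quantile normalization for length and depth. The deposited library metrics are counts of reads or bases per library, fractions of reads or bases, percentages of GC dropout and ratios of coverage along transcripts. Read counts per gene were not analysed here. The authors' gene table also holds fold changes and p-values of their comparisons, which were not used.

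The expression table carries no gene names, so its rows were paired with the gene table by order. The authors' mean per gene correlated with the row mean at 0.9592 in that order and at 0.08095 when shifted by 1 row. Here limma 3.58.1 (R 4.3.3) was fitted to all 19 libraries with group means and 3 principal components of 48 library metrics (45.9, 24.1 and 11.5% of their variance, of which 34.5, 52.2 and 74.5% lay between groups). The intronic share is among these metrics, so calls with covariates were adjusted in part for it. The study's model also has batch, which was not analysed here. Genes with a Benjamini-Hochberg adjusted p under 0.1 over 12629 genes were called. Intronic shares were compared by exact permutation (scipy 1.17.1), and the script was tested on simulated data. Members and gene lists were chosen with earlier results of these data known. Genes are named where they were among the 8 highest or 8 lowest called members of a comparison, stood at an end of a list, were regulators, or were among the 3 highest or lowest called genes of another list. U2af1l4 and the members that lost or kept calls under an alternative were named after their values were seen. The direct comparison of α9k1-naive with GFP-crush and the removal of length and GC trends (splines with 4 degrees of freedom) were added after seeing the data. Protein sequences were not used here.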

Additional observations from a re-analysis of the deposited data

Results flagged for a closer look

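Among the 34 members called in any comparison, 136 sets of values within a group were examined for a library far from the rest, and 7 had one where 6.8 are expected at the chance rate of 1 in 20. α9k1-crush replicate 2 stood high for Hnrnpa2b1 (7.29) and Ptbp1 (5.43), α9k1-naive replicate 4 stood high for Sf3b4 (4.76), and GFP-crush replicate 1 stood low for Snrpe (7.18). In GFP-naive, the library set apart was replicate 3 for Srsf1 (6.34), replicate 4 for Srsf2 (7.54) and replicate 5 for U2af1l4 (6.91). In the share of intronic bases, GFP-naive replicate 3 (2.32%) and α9k1-naive replicate 6 (2.26%) stood above the rest of their groups. The effect of α9 integrin and kindlin-1 differed with crush for 2 genes of the wider splicing lists in limma's interaction test. For Son the effect was 0.97 ± 0.21 (SE) more positive after crush (adjusted p = 0.039), and 0.15 without covariates, where it was not called. For Lsm6 the difference was -0.94 ± 0.22 (adjusted p = 0.0537), with all 4 α9k1-crush libraries below all GFP-crush libraries.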

How the results depend on the processing

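Counts of called members moved with the covariates in 5 of 6 comparisons. GFP-crush against GFP-naive had 18 calls with them and 19 without. Otherwise, without them limma called 35 members in α9k1-naive against GFP-naive (20 with them), 39 in α9k1-crush against GFP-crush (0), 39 in α9k1-crush against α9k1-naive (0), 17 in the interaction (0) and 35 in α9k1-naive against GFP-crush (12). With length and GC trends also removed, the same fits without covariates called 33, 39, 40, 22 and 28, and 12 in GFP-crush against GFP-naive. Of 12629 genes they called 2543 higher and 2902 lower, 3121 and 3321, 3478 and 3495, 2006 and 2085, and 3273 and 3741. In GFP-crush against GFP-naive they called 1684 and 1661. With trends kept and no covariates, 3574 and 3870 genes were called in α9k1-naive against GFP-crush, and 1386 and 2536 in GFP-crush against GFP-naive. Removing the trends with covariates kept gave 10 calls in GFP-crush against GFP-naive (18), of which 9 were among the 18 and Srsf9 was new. It gave 1, Hnrnpf, in α9k1-crush against α9k1-naive. Fits on the compared groups alone called 1 member in GFP-crush against GFP-naive and 3 in α9k1-naive against GFP-crush. Leaving out 1 library at a time gave 12 to 21 calls in α9k1-naive against GFP-naive, 0 to 1 in α9k1-crush against GFP-crush, 9 to 21 in GFP-crush against GFP-naive (12 without GFP-crush replicate 1 or 2), 0 to 5 in α9k1-crush against α9k1-naive, 0 to 0 in the interaction and 5 to 14 in α9k1-naive against GFP-crush. Differences in intronic share ranged over -0.502 to -0.341, -0.959 to -0.686, 0.108 to 0.381 and -0.22 to -0.0755 points in the order of the report, and their adjusted exact permutation p over 0.0317 to 0.0857, 0.0476 to 0.0571, 0.0476 to 0.31 and 0.175 to 0.583. The sign turned for Ptbp2 in α9k1-naive against GFP-naive without covariates (0.03) and for Hnrnpa3 in α9k1-naive against GFP-crush without covariates and trends (-0.10). The causes were not tested. In GFP-crush against GFP-naive, 933 genes were called higher and 1984 lower as deposited, 1826 and 1180 with median-centred libraries, and 1234 and 1225 with trends removed. Members called with a replicate block numbered 20, 0, 18, 0, 0 and 12, as without it. Same-numbered libraries of different groups correlated at -0.269 to 0.149 (25 pairs, 4 over 0.1), so the numbers were not taken as pairs. Without U2af1l4, 16 of 61 members fell and 3 rose in α9k1-naive against GFP-naive. Depth behind each gene value is unknown, since no read counts per gene were used.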
